A study of Mus musculus with 35 samples.

Results

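The heat shock proteins and their DnaJ co-chaperones were followed in 35 single cells of the mouse peritoneal cavity. Members were the genes whose symbols follow the Hsp or Dnaj naming pattern, that is Hspa, Hspb, Hspd, Hspe, Hsph and Hsp90 genes and numbered Dnaja, Dnajb and Dnajc genes. The rule found 72 genes, of which 29 carried an Hsp symbol and 43 were J proteins, among the 32285 rows of the 2 count matrices, and the same 72 symbols among the 35624 rows of the count table of the inhibitor experiment. The rule used symbols and no measured value, but it was set with earlier results of these data known. By the compartment in which their proteins work, 9 were cytosolic Hsp70 and Hsp110 genes, 2 cytosolic Hsp90 genes, 2 genes of the endoplasmic reticulum (ER), 3 mitochondrial genes and 7 small heat shock proteins. The J proteins were sorted into 9 of the ER, 5 of mitochondria and 29 others of the cytosol, nucleus, vesicles or an unsettled place. Some of the 29, such as Dnajc14 and Dnajc18, may also belong to the ER. A further 6 genes (Hspb11, Hspbap1, Hspbp1, Hspa12a, Hspa12b and Hspa13) matched the pattern by name, although they are not classical stress chaperones.

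Heat shock proteins are molecular chaperones. Hsp70 proteins bind unfolded stretches of other proteins in cycles driven by ATP. J proteins deliver the clients and start ATP hydrolysis, and Hsp110 proteins exchange the nucleotide. Hsp90 acts later on a narrower set of clients such as kinases and receptors, and small heat shock proteins hold unfolded proteins without ATP. Heat and other proteotoxic stress induce part of the cytosolic family through the transcription factor Hsf1, whereas Hspa5 (BiP) and Hsp90b1 (Grp94) of the ER are targets of the unfolded protein response. Macrophages secrete and present large amounts of protein and hold the constitutive members at high levels.

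The cells came from C57BL/6 male mice of 6 months. Peritoneal cells were cultured and the adherent ones kept as macrophages, and treated cells received 10 mM lactate for 72 h. In the lactate experiment there were 8 lactate-treated and 8 control cells. In the AZD3965 experiment 5 cells received lactate alone and 5 cells received lactate together with 300 nM AZD3965, an inhibitor of the lactate transporter MCT1. The comparison of techniques held 4 lactate-treated cells taken through scMeT-seq, in which a nano-capillary first draws cytoplasm for the metabolome. Beside them were 3 lactate-treated cells lysed whole for SMART-seq2 and 2 control cells lysed whole. The paper describes the lactate and AZD3965 experiments as scMeT-seq as well, while the titles of their cells name no technique. Every cell is a library of its own, amplified over 20 PCR cycles, and cells are called here by their names in the deposit (CTL and Lactic with a number, and T, W or F with a number in the AZD3965 experiment). Neither the labels nor the methods name the animal or the culture of a cell, so each of the 7 groups counts as 1 sample. No test over cells was run, no difference has a replicate check, and ranges over cells are descriptions.

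Counts assigned to genes ran from 269393 to 459859 per cell in the lactate experiment, from 58444 to 175450 in the AZD3965 experiment and from 494520 to 851417 in the comparison of techniques. Levels are given in CPM, the usual depth-scaled share of a gene in the counts assigned to genes in a cell. A group's CPM is that of the counts summed over its cells. The 95% intervals in parentheses cover the error of counting reads alone. Amplified reads that carry no molecular identifier do not stand for separate molecules. The intervals therefore do not cover the capture and amplification of molecules, and calls that use them share this limit. Of 18 macrophage markers, 15 to 18 had a count in each cell except control cell CTL32, with 13. In CTL32 the fibroblast markers summed to 46402 CPM and the macrophage markers to 2641 CPM, and it does not carry the profile of its label. Fibroblast and mesothelial markers together reached 25.1% of the macrophage markers in control cell CTL30, 16.8% in lactate cell Lactic29 and 51.7% in lactate+AZD cell W14, and at most 5.96% in the other 31 cells. Results that rest on these 4 cells are given with and without them. In the AZD3965 table a count of 2 occurred 6215 times and a count of 1 only 1914 times, whereas counts of 1 outnumbered counts of 2 in both other tables, so intervals of low genes there are less certain.

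**Figure D1:**
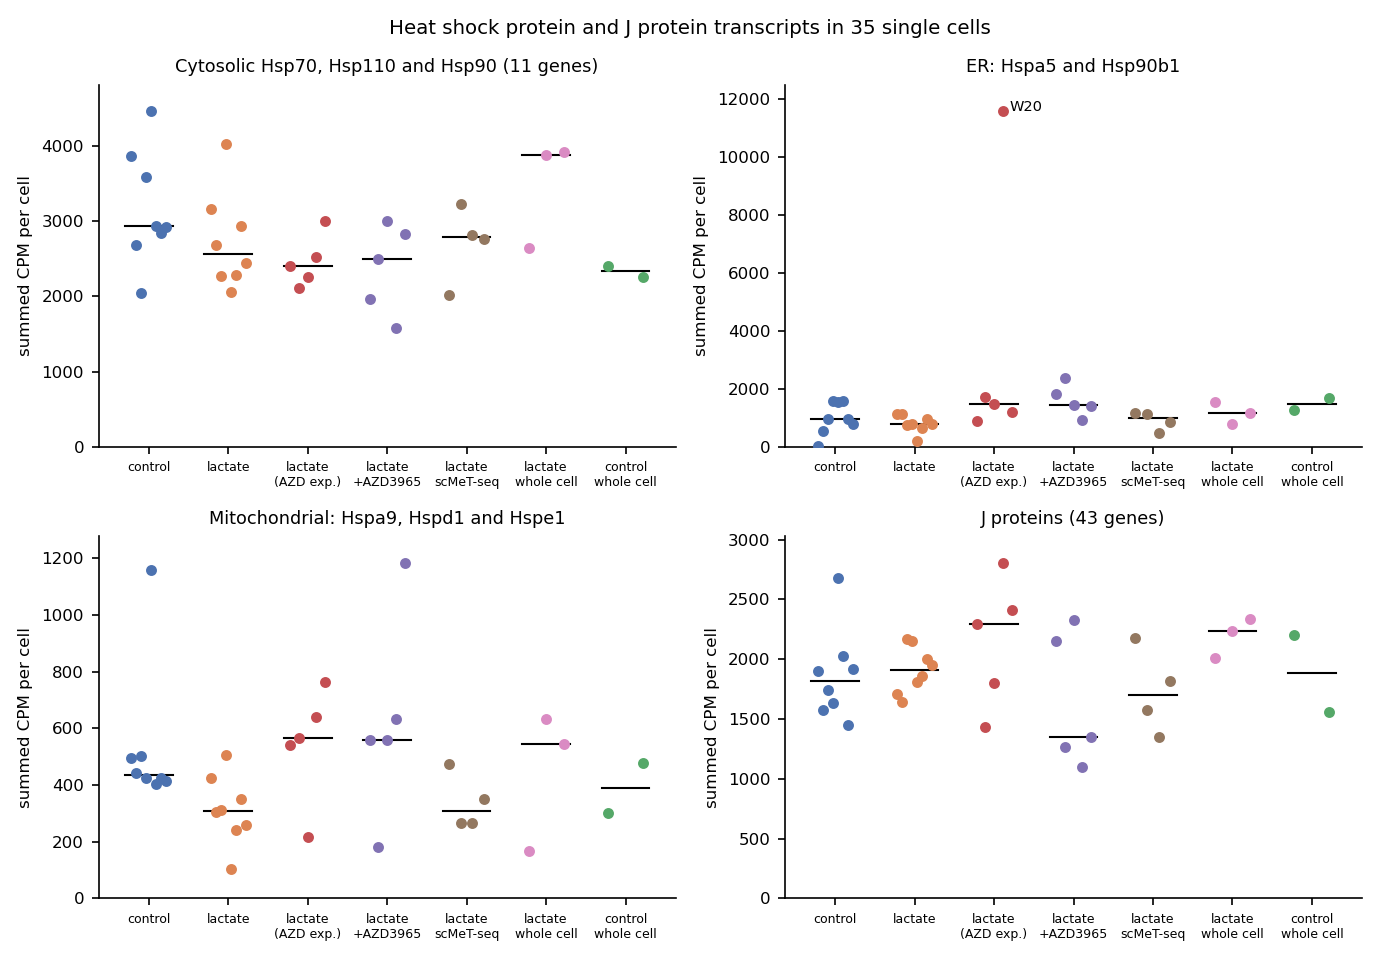
Summed CPM per cell (vertical axis, starting at 0) of 4 classes of members in the 7 groups. Each point is a cell and each black line the median of a group. Lactate cell W20 reaches 11559 CPM of Hspa5 and Hsp90b1 together, while the other 34 cells lie at or below 2377 CPM, and 7 of 8 control cells of the lactate experiment lie between 403 and 503 CPM in the mitochondrial class.

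Heat shock protein and J protein transcripts made up a small and fairly even share of each cell. The 72 members took between 0.417% (Lactic31) and 1.77% (W20) of the counts, and the group medians ran from 0.579% to 0.765%. A count was found for 68 members in at least 1 cell. Hspa8, Hsp90aa1, Hsp90ab1, Hsp90b1 and the J protein Dnaja2 had counts in all 35 cells. Hspa1l, Hspb3, Hspb9 and Dnajb8 had none in any cell, and 12 more members had counts in 1 to 5 cells. Between 20 and 55 members were detected per cell in the lactate experiment. The fewest were in CTL27 (20 members, 3392 genes) and Lactic31 (26 members, 5010 genes), which also had the fewest genes in all, and the most were in Lactic29 (55 members, 10104 genes). Thinned to the smallest total of the experiment, 269393 counts, these numbers became 20.0, 25.8 and 53.7 expected members, in the same order.

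Levels between genes were compared per length of the longest principal transcript. Over the 7 groups, Hspa8 (Hsc70, the constitutive Hsp70) had the highest median with 559 CPM per kb and a range of 369 to 783 CPM per kb. Hsp90ab1, the constitutive cytosolic Hsp90, followed with 408 CPM per kb (260 to 460). The ER pair came next, Hspa5 with 221 CPM per kb (151 to 698) and Hsp90b1 with 150 CPM per kb (93.7 to 382). Their ranges overlapped each other and that of Hsp90ab1, so this order of neighbours did not exceed the spread over groups. Of the mitochondrial set, Hspe1 (Hsp10) stood at 92.4 CPM per kb, Hspa9 (mortalin, the Hsp70 of the import motor) at 80.7 and Hspd1 (Hsp60) at 53.3. Hsp90aa1, the stress-inducible Hsp90, had a median of 50.8 CPM per kb, with a highest group of 60.8, below the lowest group of Hsp90ab1. The highest J proteins were Dnajc8, a spliceosomal protein, with 77.0 CPM per kb, Dnajb6, which holds back aggregation, with 72.5, and Dnajc19 of the mitochondrial import motor with 56.9, and their ranges overlapped.

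**Figure D2:**
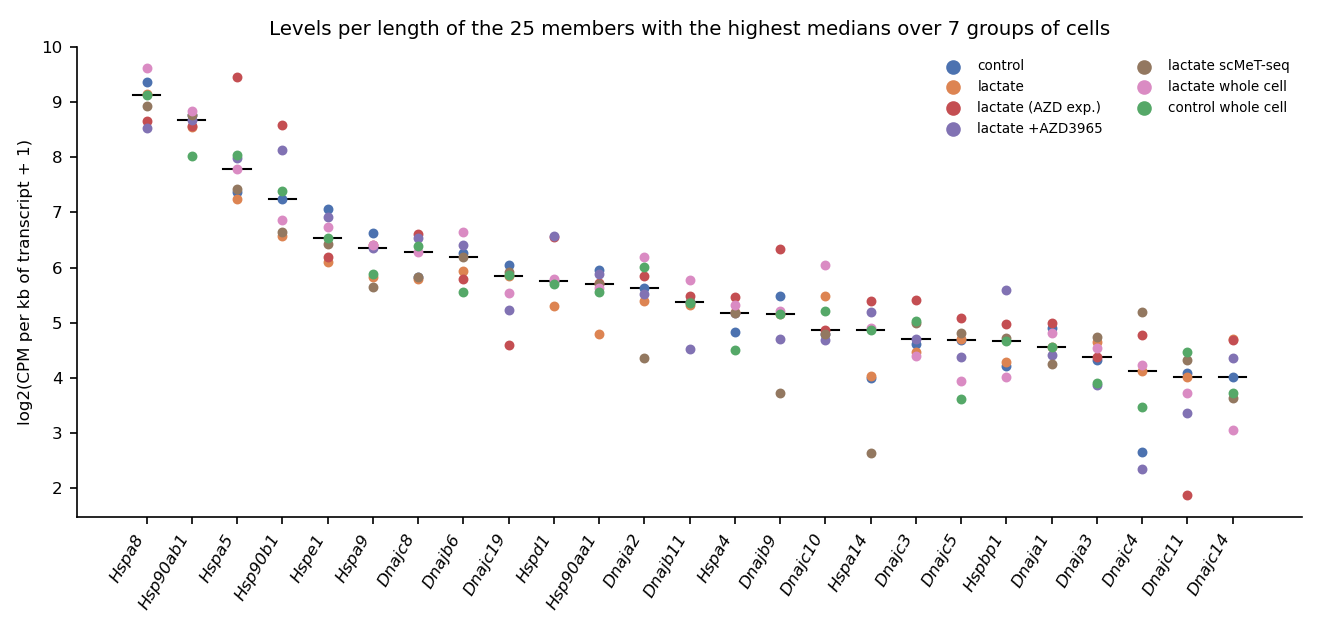
Group levels of the 25 members with the highest medians, as log2(CPM per kb of transcript + 1) (vertical axis). Each point is 1 of 7 groups and each black line the median over groups. Hspa8 and Hsp90ab1 lead, Hspa5 and Hsp90b1 have their highest group in the lactate cells of the AZD3965 experiment (698 and 382 CPM per kb), and the J proteins follow below 100 CPM per kb.

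The heat-inducible Hsp70 genes had few counts. Hspa1a had 12 counts in 6 of the 35 cells and Hspa1b 5 counts in 2 cells, against 17970 counts of Hspa8. The highest levels of Hspa1a were 25.1 CPM in T11 and 14.1 CPM in W14. Both genes lie on chromosome 17 (chr17:34969190-34972156 and chr17:34956436-34959238, minus strand, GRCm38) and are near-identical copies, so reads may be split between them and their separate values are uncertain. Dnajb1, the inducible Hsp40 that works with them, had counts in 26 cells and group levels of 20.5 to 48.2 CPM. Hsph1 (Hsp105), another gene of the heat shock response, had counts in 23 cells, with 162 CPM in CTL31 and 137 CPM in Lactic27 as its highest values.

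The first comparison asked how lactate changes the macrophages. Of the 72 members, 58 had at least 10 counts over both groups. A gene was called where its log2 ratio of summed CPM was at or past 1 in size and the interval of the ratio lay on the same side of 0. By this rule 8 members were higher with lactate and 12 lower, that is 13.8% and 20.7% of the 58, and 38 were neither. Over all 11506 genes measured, 14.1% were called higher and 20.9% lower, so the members were called about as often as any gene. The median log2 ratio of the members was -0.14, and that of all genes -0.09. Without the 3 cells with fibroblast or mesothelial markers 9 members were higher and 10 lower of 55, against 18.5% and 17.3% of all genes.

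Among the cytosolic heat shock proteins, 1 of 7 members measured was called lower with lactate (Hsp90aa1) and 1 higher (Hspa4l). Hsp90aa1 (chr12:110690605-110702728, minus strand) encodes the inducible Hsp90, and its lowest, median and highest cells had 55.4, 84.4 and 120.5 CPM with lactate and 85.1, 196.5 and 371.2 CPM without. All control cells but CTL31 lay above the highest lactate cell. For this gene and those below, the share of all genes that part this well with a cell set aside was not counted. Nothing about the members is therefore read from such near-separations. The group values were 87.5 CPM (77.3 to 98.7) and 199.5 CPM (184 to 216), a log2 ratio of -1.19 (-1.40 to -0.98). It was -1.07 without the 3 cells that carry other markers, and it stayed past 2-fold whichever cell was left out. Hsp90ab1 ran from 781 to 1346 CPM in lactate and from 698 to 1869 CPM in control cells, with a log2 ratio of -0.22 (-0.29 to -0.15). Of all counts of the 2 cytosolic Hsp90 genes, Hsp90aa1 therefore held 8.46% with lactate (exact binomial interval 7.51 to 9.49%) and 15.3% in controls (14.2 to 16.5%). This share needs no scaling between cells. It ran from 5.08 to 12.2% over lactate cells and from 5.53 to 25.0% over control cells, so that single cells overlapped.

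Hspa8 ran from 923 to 2164 CPM with lactate (median 1313) and from 900 to 2379 CPM without (median 1558), with a log2 ratio of -0.23 (-0.29 to -0.17). The nucleotide exchange factor Hspa4 stood at 0.38, and Hsph1 at 0.60 with 162 CPM in CTL31 as its highest control value. Without CTL31 the ratio of Hsph1 was 1.67 and was called. Hspa4l, a relative of Hspa4, had 90.5 CPM with lactate and 40.1 CPM without, a log2 ratio of 1.17 (lower bound 0.86), which fell under 2-fold without Lactic27 (0.94), Lactic30 (0.91) or CTL32 (0.98). Dnajb1 had a median of 43.5 CPM over lactate cells and of 16.2 CPM over control cells. Its log2 ratio was 1.09 (0.66 to 1.54), and 3 control cells and 1 lactate cell had no count. It fell to between 0.87 and 0.97 when Lactic27, Lactic33, CTL27, CTL30 or CTL31 was left out. Dnaja1, a major cytosolic partner of Hspa8, had a log2 ratio of -0.35 (-0.55 to -0.16), with the highest cell at 449 CPM (CTL27).

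Of the 3 mitochondrial chaperones, 0 were called in either direction. Summed over Hspa9, Hspd1 and Hspe1, the level was 315 CPM with lactate and 531 CPM without, a log2 ratio of -0.75 (-0.87 to -0.64), under 2-fold, and of -0.45 (-0.59 to -0.32) without the 3 cells apart. In the whole cells described further on, the same sum stood at 0.34 (0.18 to 0.50) with lactate. Hspe1 (chr1:55088132-55091307, plus strand) had 8.40, 56.0 and 76.1 CPM in the lowest, median and highest lactate cell and 48.1, 99.3 and 159.8 CPM in the control cells. All control cells but CTL33 lay above the highest lactate cell, and the log2 ratio was -0.98 (-1.26 to -0.70), just under 2-fold. It was -1.04 without the 3 cells, and past 2-fold, between -1.01 and -1.11, when Lactic28, Lactic29, Lactic31, Lactic32 or CTL33 was left out. Its partner Hspd1 had a log2 ratio of -0.47 (-0.70 to -0.25), with cells from 4.35 to 218 CPM and from 6.67 to 266 CPM. Hspa9 had 169 CPM with lactate and 298 CPM without (-0.82, -0.98 to -0.66). Its highest control cell was CTL32 with 792 CPM, and without the 3 cells its ratio was -0.22, and the part of the fibroblast transcripts in this result was not tested.

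Hspd1 forms the barrel and Hspe1 the lid of the mitochondrial chaperonin, and the genes lie head to head, with annotated spans that overlap on opposite strands. The library is not stated to keep the strand, so reads from the overlap cannot be told apart. Processed pseudogenes carry the names of both genes and may share reads. The 250 bases before the start of Hspe1 (RefSeq, GRCm38.p6, chr1:55087898-55088147, plus strand) lie within the annotated span of Hspd1 (chr1:55077835-55088243, minus strand). They are shown with the heat shock element in capitals. Its 3 units GAA, TTC and GAA, each 2 bases apart, were searched on both strands. The element matched on each strand, 89 to 77 and 84 to 72 bases before the start, and the matches overlap.
Hspe1: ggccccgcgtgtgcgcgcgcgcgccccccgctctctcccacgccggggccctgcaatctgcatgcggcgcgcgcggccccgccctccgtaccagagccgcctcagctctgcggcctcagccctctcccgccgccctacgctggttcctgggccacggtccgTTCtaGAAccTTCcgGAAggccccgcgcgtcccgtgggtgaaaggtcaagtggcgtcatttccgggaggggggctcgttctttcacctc
The motif stood in 153 of 32851 promoter entries and in those of 3 of the 59 members with an entry, Hspe1, Hspd1 and Dnajb6. A match is a description of letters and not a measured binding site.

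In the ER, neither Hsp90b1 nor Hspa5 was called with lactate. Hsp90b1 (chr10:86690209-86705509, minus strand) had 159, 266 and 402 CPM in its lowest, median and highest lactate cell and 18.6, 449 and 573 CPM in the control cells. Apart from Lactic29 above and CTL27 below, all lactate cells lay under all control cells. The log2 ratio was -0.68 (-0.81 to -0.55) and -0.72 without the 3 cells apart, under 2-fold. Hspa5 (chr2:34771970-34777547, plus strand) ran from 34.6 to 871 CPM with lactate (median 526) and from 0 to 1121 CPM without (median 525), with a log2 ratio of -0.13 (-0.23 to -0.03) and of 0.06 without the 3 cells. CTL27 had no count of Hspa5 in 269393 counts, which allows up to 11.1 CPM for the error of counting reads, and Lactic31 had 34.6 CPM. These were also the cells with the fewest genes. CTL27 held the highest levels of Hspa8 (2379 CPM), Hsp90aa1 (371 CPM) and Dnaja1 (449 CPM) of the lactate experiment.

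Of the 9 J proteins sorted to the ER, 3 were called higher with lactate (Dnajb12, Dnajc16 and Dnajc25) and 0 lower, beside 14.1% of all genes called higher and 20.9% lower. Their median was 0.65, or 0.39 without the 3 cells apart, and their sum had a log2 ratio of 0.26 (0.17 to 0.35). Dnajc10 (ERdj5, a disulfide reductase) had 176 CPM with lactate and 108 CPM without (0.71, 0.50 to 0.91). Dnajb12, a J protein of the ER membrane, had a log2 ratio of 1.01 with 25.3 against 12.6 CPM, and fell under 2-fold without any 1 of 7 cells (0.77 to 1.00), and it was 1.24 without the 3 cells apart. Dnajc16 lost its call without those cells, with a ratio of 0.73 (-0.06 to 1.56). The ratio of Dnajc25, 2.84 (2.06 to 3.73), was 2.54 without them. It rested on Lactic31 with 287 CPM and lost its call without that cell (0.997), and CTL33 held 14 of its 15 control counts, so that 1 count was left without CTL33 (6.52, 4.01 to 11.8). Dnajb9 (ERdj4), Dnajb11 (ERdj3) and Dnajc3 (p58IPK), all targets of the unfolded protein response, stood at -0.33, -0.06 and -0.15.

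Lower members with at least 20 CPM in controls were, beside Hsp90aa1 and the small heat shock proteins, Dnajb13, Hspbap1, Dnajb4 and Hspb11. Each was a low gene in few cells. Dnajb13, known from the axoneme of cilia and flagella, had 129 CPM in CTL28 and 141 CPM in CTL35, and at most 11.5 CPM in the other control cells. Its only lactate cell above 3 CPM was Lactic29 with 39.2 CPM, and the log2 ratio of -2.77 became -6.65 (-11.96 to -4.14, with 1 count left) without Lactic29 and -1.95 without CTL28. Dnajb4 rested on CTL32 (91.3 CPM) and CTL33 (66.5 CPM), with a ratio of -2.05, of -5.84 (-11.2 to -3.31, with 1 count left) without Lactic29, of -1.19 without CTL32 and of -1.41 without CTL33. Hspb11, a subunit of intraflagellar transport in spite of its name, stood at -1.95 (-2.85 to -1.14), and Hspbap1 at -2.14, or -3.30 without Lactic28.

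**Figure D3:**
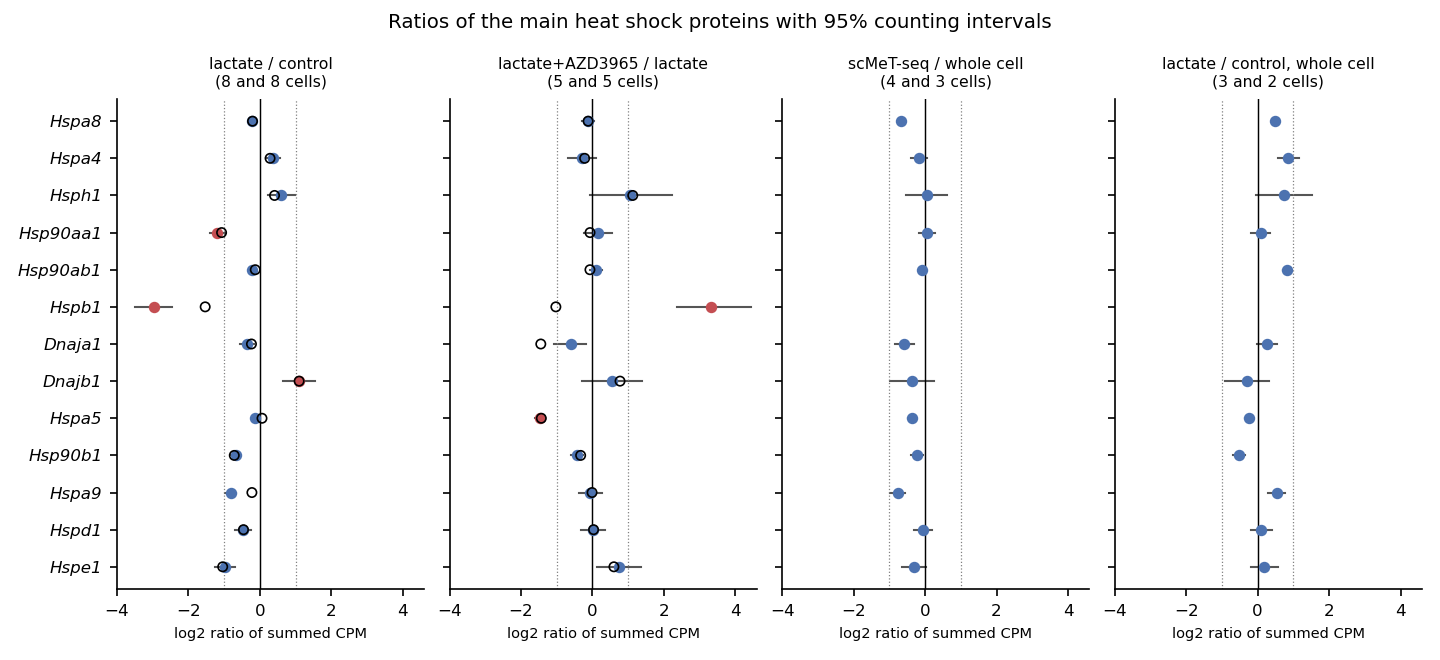
Log2 ratios of summed CPM (horizontal axis) with 95% counting intervals for the 13 of 15 main members that had at least 10 counts. Filled points use all cells, red where the gene was called, open circles leave out the cells with fibroblast or mesothelial markers, and dotted lines mark 2-fold. Hsp90aa1 at -1.19 is called in the lactate comparison, Hspb1 goes from 3.33 with AZD3965 to a bound of -1.02, set by the floor of 3 counts, when W14 is left out, and most other members lie within 2-fold.

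Most counts of Hspb1 and Hspb8 lay in the cells with fibroblast transcripts, and most counts of Hspb6 did not. Hspb1 (Hsp27, chr5:135887919-135889563) and Hspb8, the partner of Bag3, are chaperones of muscle and connective tissue cells among others. Of 406 counts of Hspb1 in 35 cells, 91.6% lay in CTL30, CTL32, Lactic29, W14 and W5, the 5 cells with the highest fibroblast and mesothelial markers, and all 129 counts of Hspb8 did. W5, with 5.96% of the macrophage markers, lay under the limit of 10% by which the other 4 cells were set apart. Hspb1 had 573 CPM in W14, 437 CPM in CTL30, 224 CPM in CTL32, 74.9 CPM in W5 and 66.1 CPM in Lactic29. In 5 further cells it ran from 11.9 to 32.3 CPM, and 25 cells had none. Hspb8 had 304 CPM in W14, 155 CPM in CTL32, 120 CPM in W5, 24.5 CPM in Lactic29 and 10.1 CPM in CTL30. Neither gene had a count in any of the 9 cells of the comparison of techniques. Of the 35 counts of Hspb6, 34.3% lay in the same 5 cells. Its highest level was 59.4 CPM in CTL27, followed by 17.1 CPM in Lactic29, 14.99 CPM in W5, 13.7 CPM in CTL33, 8.30 CPM in CTL32 and 2.96 CPM in Lactic30. Hspb2 and Hspb7 had 12 and 2 counts, all in those 5 cells.

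The ratios of Hspb8 in both experiments, and of Hspb1 with AZD3965, changed direction when a single cell was left out. With lactate Hspb1 had a log2 ratio of -2.96 (-3.49 to -2.46), of -1.53 without the 3 cells and of -4.64 without Lactic29 alone, and of -1.76 without CTL30 alone. This ratio stayed past 2-fold whichever single cell was left out. For Hspb8 it was -2.63, and 1.09 without CTL32. Without Lactic29 no lactate cell had a count of Hspb8, which was then at least 17.9-fold lower with lactate against the floor of 3 counts over a group. Hspb6 stood at -1.69 with 8 and 25 counts. Lactic29 held 87.5% of its lactate counts and CTL27 held 64.0% of its control counts. Without the 3 cells it stood at -4.73 (-10.1 to -2.10), still called, with lactate counts left in Lactic30 alone (2.96 CPM). With AZD3965 Hspb1 stood at 3.33 (2.38 to 4.44) and Hspb8 at 1.74 (0.88 to 2.66). Without W14 no lactate+AZD cell had a count of either gene, and against the same floor they were at least 2.03-fold and 3.25-fold lower with the inhibitor. Without W5 no lactate cell of that experiment had a count of either gene, and they were at least 27.3-fold and 14.5-fold higher. Serpinh1 (Hsp47), the collagen chaperone of the ER, is not a member by symbol. It had 2015 CPM in CTL32, 443 CPM in Lactic29 and 399 CPM in CTL30, but 59.95 CPM in W5 and 35.4 CPM in W14, below the 65.9 CPM of CTL31. The part of the fibroblast transcripts in these results was not tested.

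**Figure D4:**
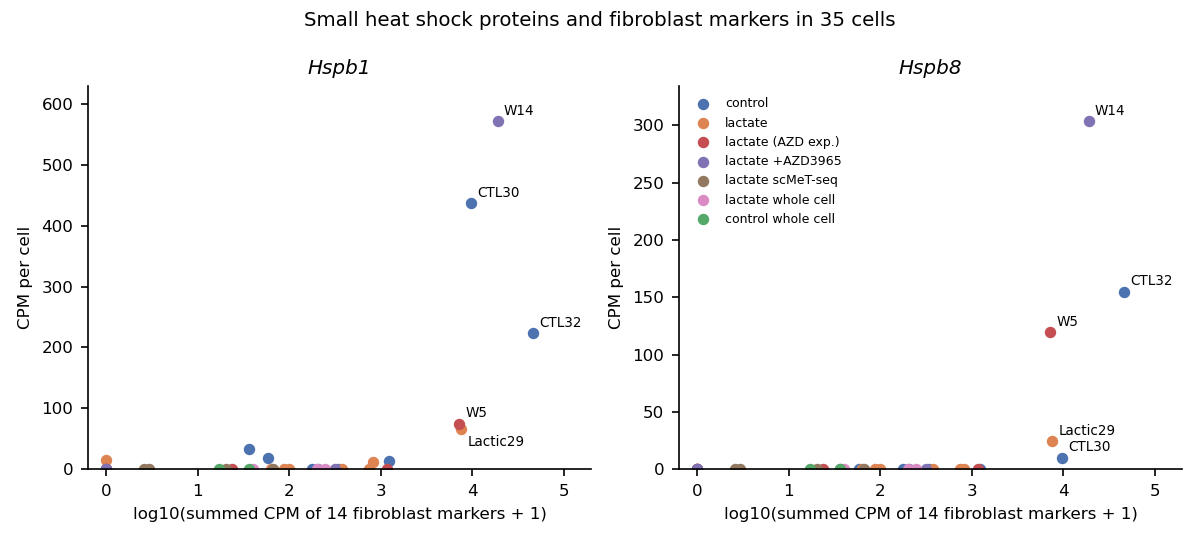
CPM of Hspb1 and Hspb8 per cell (vertical axes, starting at 0) against the summed CPM of 14 fibroblast markers on a log10 scale after adding 1 (horizontal axes), coloured by group. The 5 named cells lie furthest to the right and hold 91.6% of the Hspb1 counts and all Hspb8 counts, and cells to the left of them are at or below 32.3 CPM of Hspb1.

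The second comparison set lactate+AZD cells against lactate cells. Of the 72 members 49 were measured, and 7 were called higher (14.3%) and 4 lower (8.16%) with the inhibitor. Over all 8764 genes 21.7% were higher and 12.5% lower, so both shares of the members lay under those of all genes. The median log2 ratio was -0.06 for the members and 0.17 for all genes. TMM scaling, which moved all ratios by -0.16, gave 6 higher and 6 lower members. Without W20, 8 of 47 members were higher and 4 lower, against 23.5% and 12.1% of all genes. Without W14, 2 of 46 members were higher and 7 lower, against 17.99% and 17.5% of all genes.

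One lactate cell, W20, held most of the ER transcripts of its group. Hspa5 had 396, 597, 727, 1106 and 8882 CPM in the lactate cells T11, F18, W5, T13 and W20 in order of size, and 257, 701, 808, 856 and 1542 CPM in the lactate+AZD cells. W20 alone held 77.9% of the Hspa5 counts of its group, and the 2 groups otherwise overlapped. The log2 ratio of Hspa5 was -1.47 (-1.61 to -1.33) and was called, and without W20 it was 0.34 (0.16 to 0.53). Hsp90b1 had 503, 599, 619, 764 and 2677 CPM with lactate, the last in W20, and 586, 594, 667, 834.5 and 1133 CPM with the inhibitor. Its ratio went from -0.44 (-0.61 to -0.27) to 0.37 (0.16 to 0.58) without W20. Summed over the pair the ratio was -1.08 with W20 and 0.36 without.

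Other ER genes were high in W20 as well. It had the highest level of the 10 cells for Hspa5, Hsp90b1, Dnajc3 (524 CPM, at most 184 in the other 9 cells), Dnajb9 (271 CPM, at most 270), Dnajb12 (92.5 CPM, at most 49.5) and Dnajc16 (80.2 CPM, at most 62.8). Dnajb11, Dnajb14, Dnajc1, Dnajc10 and Dnajc25 were within the range of the other cells. Of 23 other genes of ER folding and the unfolded protein response, 12 were highest in W20, while no other cell held the highest value for more than 3. Over all 8764 genes W20 held the highest value for 9.15%. W20 was picked out after its values were seen, and the list was chosen with earlier results of these data known. These counts are therefore descriptions and no support for a pattern. The 12 included the transcription factor Ddit3 (CHOP) with 938 CPM against at most 277 in the other cells, the disulfide isomerase Pdia4 with 882 CPM against at most 331, Calr (calreticulin) with 913 CPM against at most 432, Creld2 with 734 CPM against at most 134, the secreted ER protein Manf with 530 CPM against at most 198, and the Hspa5 cofactor Sdf2l1 with 463 CPM against at most 212. Xbp1 (148 CPM), Atf4 (142 CPM) and Canx (438 CPM) were inside the range of the other cells. Outside the ER, the cytosolic J proteins Dnajb4 (154 CPM, at most 120 in the other cells) and Dnajb2 (49.3 CPM, at most 42.4) were also highest in W20, which makes 8 members in all. Inside the range of the other cells were Hspa8 at 1098 CPM, Hsp90ab1 at 907 CPM, Hspa9 at 216 CPM and Hspd1 at 296 CPM. W20 had 162118 counts in 5977 genes, 82181 CPM of macrophage markers and no count of the fibroblast markers.

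**Figure D5:**
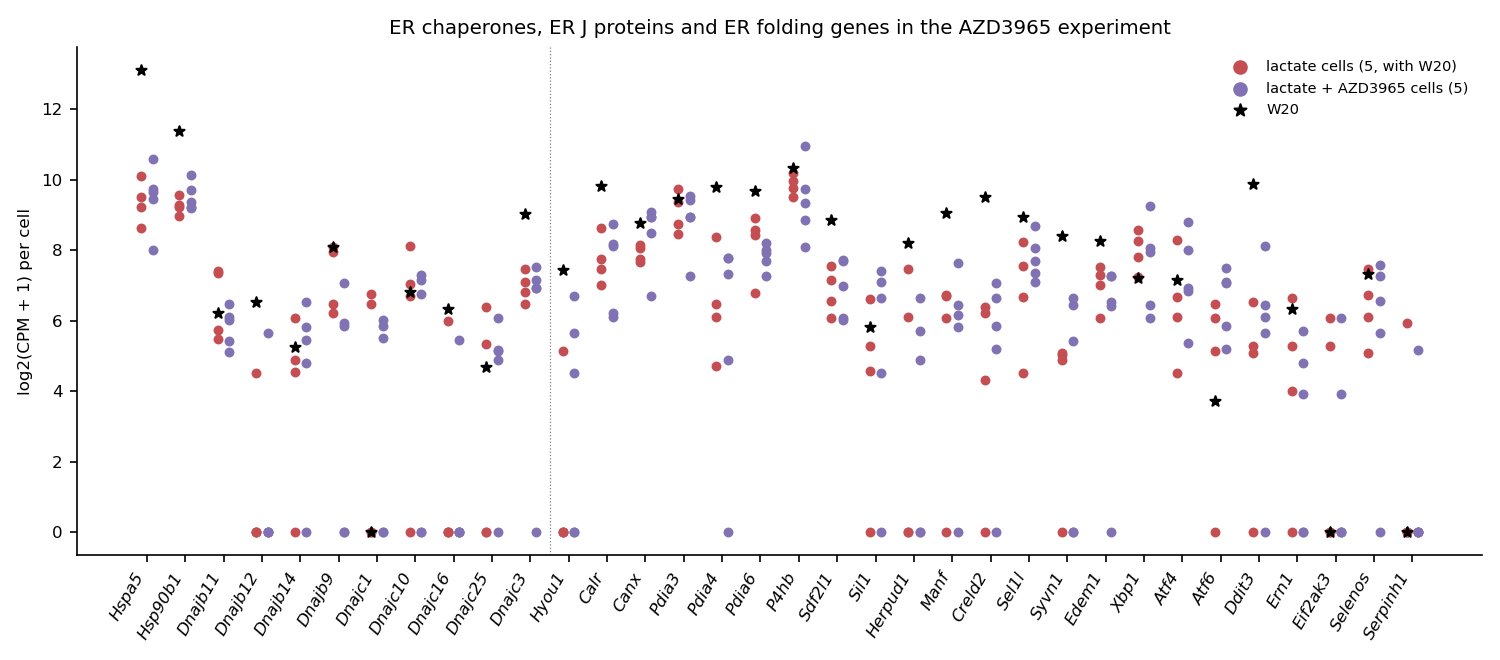
log2(CPM + 1) per cell (vertical axis) of Hspa5, Hsp90b1, the 9 ER J proteins (left of the dotted line) and 23 further ER folding genes (right) in the 10 cells of the AZD3965 experiment. Red points are lactate cells, purple points lactate+AZD cells and the star is W20, which leads for 6 of the 11 members and 12 of the 23 other genes, with 8882 CPM of Hspa5 against at most 1542 in the other cells.

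Promoters are shown for 3 of the 8 members that were highest in W20, those with a match to the ER stress response element. Its fixed letters are CCAAT and CCACG with 9 bases between them, and both strands of the 250 bases before each start were searched. It stood in 37 of 32851 promoter entries (0.113%). Of the 59 members with an entry it was found in 3, Hspa5, Hsp90b1 and Dnajc3, all highest in W20. Of 19 genes of the ER list with an entry it was found in 5, of which Calr, Creld2, Pdia6 and Syvn1 were highest in W20 and Canx was not. Hyou1, Pdia4, Sdf2l1, Herpud1, Manf, Sel1l, Edem1 and Ddit3 were also highest in W20 and had no match or no entry. The sequences follow 5′ to 3′ on the gene's strand (RefSeq, GRCm38.p6), with the fixed letters of the element in capitals. They are Hspa5 at chr2:34771840-34772089 on the plus strand with the element 65 to 47 bases before the start, Hsp90b1 at chr10:86705445-86705694 on the minus strand with an element 212 to 194 bases before the start and a reversed element 107 to 89 bases before it, and Dnajc3 at chr14:118937682-118937931 on the plus strand with the element 105 to 87 bases before the start.
Hspa5: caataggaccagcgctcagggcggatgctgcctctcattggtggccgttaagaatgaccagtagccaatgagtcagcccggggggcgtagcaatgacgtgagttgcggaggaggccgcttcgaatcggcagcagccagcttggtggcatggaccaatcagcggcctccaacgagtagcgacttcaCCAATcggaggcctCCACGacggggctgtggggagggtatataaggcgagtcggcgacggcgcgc
Hsp90b1: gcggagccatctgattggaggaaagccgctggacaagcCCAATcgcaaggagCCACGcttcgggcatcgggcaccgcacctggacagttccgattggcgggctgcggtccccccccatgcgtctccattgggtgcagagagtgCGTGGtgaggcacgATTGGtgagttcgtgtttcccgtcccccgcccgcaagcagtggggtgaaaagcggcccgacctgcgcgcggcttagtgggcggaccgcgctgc
Dnajc3: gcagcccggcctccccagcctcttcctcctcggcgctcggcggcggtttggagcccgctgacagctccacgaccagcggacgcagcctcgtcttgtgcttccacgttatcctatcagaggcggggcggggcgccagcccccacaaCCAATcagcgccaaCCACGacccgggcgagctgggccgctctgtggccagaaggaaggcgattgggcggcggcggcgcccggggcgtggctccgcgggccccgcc
Dnajb9, Dnajb12 and Dnajc16 had no match in this window, which says only that these letters are not there. Dnajb2 and Dnajb4, also highest in W20, had no match or no entry. A relation between the element and the levels in W20 was not tested.

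Of the ER J proteins, Dnajb9 was lower with the inhibitor with and without W20. Dnajb9, whose protein recruits Hspa5 to unfolded clients and to Ern1, had 0, 0, 56.6, 60.1 and 134.6 CPM in lactate+AZD cells and 74.1, 88.4, 247, 270 and 271 CPM in lactate cells. Of the lactate+AZD cells only T10 reached into the range of the lactate cells. The ratio was -1.66 (-2.23 to -1.12), -1.49 without W20, -1.62 without W14 and -2.34 without T10. Dnajb11 stood at -0.99 (-1.63 to -0.38), and at -1.12 without W20, and Dnajc3 at -0.73 (-1.15 to -0.32), and at 0.06 without W20. Hspa4l had 0, 14.2, 22.1, 113.5 and 169.7 CPM with the inhibitor and 0, 0, 17.1, 18.5 and 56.5 CPM without. Its ratio was 1.90 (1.03 to 2.84), 1.198 without W14 and 2.86 without T11. The other calls were of genes with 29 or fewer counts over both groups, namely Dnajc11, Dnajc21, Dnajc30 and Hspb11 higher and Dnajc4 and Dnajc16 lower, and Dnajc11 (1.81), Dnajc16 (-1.63) and Dnajc30 (1.503) lost the call when any of several cells was left out.

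Cytosolic and mitochondrial chaperones of the 2 groups overlapped. Hspa8 had 205, 616, 891, 1182 and 1239 CPM with the inhibitor and 723, 764, 1027, 1098 and 1414 CPM without (-0.12, -0.29 to 0.05). Hsp90ab1 had 838, 848, 963, 977 and 1393 CPM with the inhibitor and 832, 907, 952, 1024 and 1127 CPM without (0.10, -0.06 to 0.26). The lowest Hspa8 value was from F8, the cell with 58444 counts. Hsp90aa1, the gene lower with lactate in the first experiment, stood at 0.16 (-0.22 to 0.54). Hspa9 and Hspd1 stood at -0.06 and 0.01. Hspe1 had 0, 44.3, 106, 120 and 308 CPM with the inhibitor and 0, 17.1, 59.95, 88.4 and 129.5 CPM without, a ratio of 0.74 (0.13 to 1.37), of 1.45 without W20 and of 1.17 without W10. Hsph1 stood at 1.05 (-0.06 to 2.21) with 20 and 12 counts and was not called, and at 2.68 (0.93 to 5.07, with 3 lactate counts left) without W20. Dnaja1 stood at -0.61 and, without W14, at -1.45.

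The third comparison asked whether drawing cytoplasm before lysis changes the transcriptome. Of the 72 members 53 were measured in the lactate-treated scMeT-seq and whole cells, and 5 were called higher (9.43%) and 12 lower (22.6%) in scMeT-seq cells. Over all 9723 genes 20.3% were higher and 19.7% lower. The median log2 ratio was -0.22 for the members and 0.02 for all genes. Against all 5 whole cells, the control cells included, 7 of 54 members were higher (12.96%) and 11 lower (20.4%), with a median of -0.14. Over all 10419 genes measured in that setting 12.7% were higher and 25.0% lower, with a median of -0.19.

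Dnaja2, a cytosolic J protein of class A that serves Hspa8, was called lower in scMeT-seq cells. It had 34.5, 52.9, 55.8 and 82.5 CPM in scMeT-seq cells and 149.6, 214 and 253 CPM in lactate-treated whole cells, and the control whole cells had 171 and 193 CPM. None of these 4 scMeT-seq cells reached a whole cell. The paper describes the other experiments as scMeT-seq too. There, however, Dnaja2 ran from 43.02 CPM (CTL35) to 318 CPM (CTL32) and from 44.3 CPM (F9) to 243 CPM (F18). Cells of those experiments thus lay above and below the lowest whole cell. The ratio between the techniques was -1.88 (-2.17 to -1.60) and -1.80 against all 5 whole cells. Hspa8 itself had 628, 1279, 1342 and 1480 CPM in scMeT-seq cells and 1622, 1830 and 2124 CPM in lactate-treated whole cells (-0.68, -0.76 to -0.61), without overlap, but the control whole cells with 1207 and 1425 CPM lay within the scMeT-seq range. Dnajc2, a J protein of the ribosome, had 0, 0, 8.84 and 26.9 CPM in scMeT-seq cells and 34.3, 52.6 and 73.9 CPM in whole cells, and 52.9 and 53.5 CPM in the controls (-2.72, -3.49 to -2.01; -4.11 without Lactic14). Its partner at the ribosome, Hspa14, stood at -2.47 (-3.20 to -1.80), with 0, 0, 10.3 and 30.8 CPM against 2.02, 45.6 and 99.6 CPM, at -3.84 without Lactic14 and at -1.49 without Lactic6. The cells of the 2 groups did not overlap for 3 of the 53 members (Dnaja2, Hspa8 and Dnajc2), and for 4.77% of all genes, so that nothing about the members is read from this count.

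The ER and mitochondrial heat shock proteins differed by less than 2-fold between techniques. Hspa5 had 318, 494, 843 and 880 CPM in scMeT-seq cells and 529, 736 and 1254 CPM in whole cells (-0.37, -0.48 to -0.27). Hsp90b1 stood at -0.22, Hspd1 at -0.05, Hspe1 at -0.30 and Hspa9 at -0.76 (-0.97 to -0.56), the last at -1.08 without Lactic13 and -1.07 without Lactic5. Hsp90aa1 and Hsp90ab1 stood at 0.06 and -0.08. Dnajc10 had 49.6, 75.0, 115 and 185 CPM in scMeT-seq cells and 180, 287 and 305 CPM in whole cells (-1.28, -1.50 to -1.06), and -0.96 against all 5 whole cells. The other calls rested on few cells. Dnajb4 (-2.26) and Dnajb2 (-1.77) had 202 and 166 CPM in Lactic5 and stood at -0.73 and -0.65 without it, and Dnajb9 (-1.57) had 170 CPM in Lactic7 and stood at -0.50 without it and at -3.12 without Lactic17. Hspa13 (-1.15) and Dnajc12 (-1.16) lost the call when any of 3 or 4 cells was left out, and Dnajc17 stood at -2.07. Higher in scMeT-seq cells were Hspbap1 (1.66, with 34.4 against 10.9 CPM, and at least 12.97-fold higher without Lactic6, which left no count in whole cells), Dnajc4 (1.00, and -0.23 without Lactic13) and Hspa12a, an atypical Hsp70, which had 42.3 CPM in Lactic14 and 51.6 CPM in Lactic17 and no count in 3 whole cells, at least 13.6-fold higher against a floor of 3 counts over the group.

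The whole cells gave a second lactate comparison, with 3 lactate-treated and 2 control cells. It shares its lactate-treated cells with the comparison of techniques. Here 54 members were measured, with 7 called higher (12.96%) and 5 lower (9.26%) with lactate, against 14.1% and 26.4% of 9732 genes. The median log2 ratio was 0.09 for the members and -0.20 for all genes. TMM scaling moved all ratios by 0.19 and gave 11 higher and 3 lower members.

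Of 8 cytosolic heat shock proteins measured in whole cells, 2 were called higher with lactate (Hspa4l and Hspa2), 0 lower and 6 neither. Hspa2, known from male germ cells, had 16 counts, all in Lactic7, at least 4.32-fold higher against a floor of 3 counts over the group. Hspa8 had 1622, 1830 and 2124 CPM with lactate and 1207 and 1425 CPM without (0.49, 0.40 to 0.57), under 2-fold, and the groups did not overlap. This held for 8 of the 54 members and for 21.4% of all genes, so that nothing about the members is read from it. Hsp90ab1 had 641, 1138 and 1583 CPM with lactate and 635 and 685 CPM without (0.82, 0.71 to 0.94), and 1.06 without Lactic5. The nucleotide exchange factors Hspa4 and Hspa4l stood at 0.86 and 1.24, with 156, 168 and 214 CPM against 76.7 and 115 CPM for Hspa4. Leaving out CTL4 gave 1.24 for Hspa4 and 0.60 for Hspa4l. The sum of the cytosolic heat shock proteins was 3541 CPM with lactate and 2344 CPM without, a log2 ratio of 0.60 (0.53 to 0.66), whereas in the lactate experiment it was 2719 against 3116 CPM, -0.20 (-0.24 to -0.15). The difference between the 2 experiments was not tested, and technique, experiment and cells cannot be told apart in it.

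Values of single members in the 2 lactate comparisons stood as follows. Hsp90b1 was called in neither and had ratios below 0 in both, with 258, 287 and 418 CPM against 425 and 533 CPM in whole cells (-0.53, -0.69 to -0.36) beside -0.68 in the lactate experiment. Hsp90aa1 was not called in whole cells, with 99.1, 162 and 206 CPM against 122 and 194 CPM (0.08, -0.18 to 0.35) beside -1.19. As a share of both cytosolic Hsp90 genes, Hsp90aa1 held 12.1% with lactate (10.8 to 13.5%) and 18.7% without (16.5 to 21.1%) in whole cells. There the lower share went with a higher Hsp90ab1 (0.82), and in the lactate experiment with a lower Hsp90aa1 (-1.19). The share was 15.025% in the lactate cells of the AZD3965 experiment and 13.24% in the lactate-treated scMeT-seq cells. Controls of the lactate experiment had 15.3%, and a common effect of lactate on the share was not tested. In single whole cells the share was 9.29, 13.4 and 15.3% with lactate and 16.1 and 22.1% in controls, without overlap. In this comparison the cells did not overlap for 21.4% of all genes either, so that nothing is read from it. Hspe1 stood at 0.19 and Hspa9 at 0.53 (1.61 without CTL8) in whole cells, beside -0.98 and -0.82. Hspa4l was called higher in both, with 1.24 beside 1.17, and Dnajb1, called higher in the lactate experiment, stood at -0.30 in whole cells.

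Dnajb6 had 121, 142 and 212 CPM in lactate-treated and 32.1 and 101 CPM in control whole cells (1.11, 0.78 to 1.45; 2.31 without CTL4 and 0.65 without CTL8), and -0.34 in the lactate experiment. Dnajb4 and Dnajb2 had the largest ratios, 5.17 and 5.04, with 3 counts each in the controls, so that these are ratios of few counts with intervals of 3.59 to 7.46 and 3.46 to 7.34. Lactic5 held most of both (202 and 166 CPM), and without it they were 3.64 (1.96 to 5.99) and 3.92 (2.26 to 6.25). Lower with lactate were Dnajc1, Dnajb12, Hspbap1, Hspa12a and Dnajc25. Dnajc1 of the ER stood at -1.04, at -1.79 without Lactic7 but at -0.47 without CTL4. Dnajb12, called higher in the lactate experiment, stood at -1.42, at -3.76 (-6.09 to -2.14, with 3 counts left) without Lactic7 and at -0.45 without CTL8. Hspbap1 stood at -1.06, and was at least 8.54-fold lower without Lactic6, which left no count with lactate. Hspa12a was at least 6.58-fold lower against a floor of 3 counts over the group, and its 16 control counts all lay in CTL4. Dnajc25 stood at -4.11, and its 14 control counts lay mostly in CTL4.

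Other genes of protein folding were followed as 5 lists of 78 genes. Of 25 cytosolic co-chaperones and partners of Hsp90 and Hsp70, 5 were higher and 1 lower with lactate in the lactate experiment, with a median of 0.24. Bag1, a nucleotide exchange factor of Hsp70, had 132 CPM with lactate and 52.7 CPM without (1.33, 1.06 to 1.60), with lactate cells from 76.1 to 180.6 CPM and control cells from 5.49 to 114 CPM. Chordc1, an Hsp90 partner, had 56.6 and 15.6 CPM (1.86, 1.38 to 2.36), and Sugt1, another Hsp90 partner, had 65.8 and 31.3 CPM (1.07). Tsc1, which has been described as an Hsp90 co-chaperone, stood at 1.03. With AZD3965 4 of 23 were higher, among them Ppid (1.498) and Tsc1 (1.26), and 3 lower, among them Ppp5c (-2.46) and Bag6 (-1.48). Without W14 Ppid fell under 2-fold (0.54), while Tsc1 stood at 1.41, Ppp5c at -3.06 and Bag6 at -1.95. In scMeT-seq cells 0 of 24 were higher and 5 lower with a median of -0.53, and among them the Hsp90 immunophilin Fkbp4 stood at -1.79 (36.1 and 124.5 CPM), Ppid at -2.78, Bag1 at -1.49 and Ttc4 at -1.43. In whole cells 1 of 23 was higher with lactate and 3 lower. The higher one was Ahsa1, which stimulates the ATPase of Hsp90, with 131, 155 and 166 CPM against 30.3 and 34.1 CPM (2.20, 1.74 to 2.68), and the lower ones were Bag5 (-3.13), Fnip2 (-1.79) and Fnip1 (-1.16).

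The ER list of 23 genes had 2 higher and 2 lower with lactate, 1 higher and 5 lower with AZD3965, 2 higher and 1 lower in scMeT-seq cells (of 22) and 1 higher and 3 lower with lactate in whole cells (of 22). Sil1, the nucleotide exchange factor of Hspa5, had 83.9 CPM with lactate and 7.14 CPM without in the lactate experiment (3.55, 2.91 to 4.27), with at least 38.5 CPM in 7 of 8 lactate cells and at most 24.6 CPM in control cells. In whole cells Sil1 went the other way, with 14.2, 14.7 and 23.6 CPM against 17.8 and 58.7 CPM (-1.26). Hyou1, an Hsp110-like protein of the ER, had a ratio of 1.49 in the lactate experiment. With AZD3965 the lower genes were led by Herpud1 (-2.15), Ddit3 (-1.54), Creld2 (-1.49) and Ern1 (-1.43). The median of the list was -0.63, and without W20 it was 0.06, with 3 higher and 1 lower.

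Few genes of the remaining lists were called. The 6 heat shock factors and regulators had 0 calls with lactate, 2 higher with AZD3965 (Hsf2 at 1.503 and Hikeshi, the nuclear import factor of Hsp70, at 1.45), 1 higher (Ubqln1) and 1 lower in scMeT-seq cells and 1 higher in whole cells with lactate. Of 14 genes of the cytosolic chaperonin TRiC and of prefoldin, 0 were higher and 1 lower (Pfdn6, -1.17) with lactate, 1 was higher with AZD3965 (Pfdn1, 2.09), 1 was higher and 1 lower (Cct6a, -1.48) in scMeT-seq cells and 1 was higher in whole cells with lactate (Pfdn2, 1.99). Of 10 mitochondrial folding genes, 1 was higher with lactate (the protease Clpp) and 0 lower. With AZD3965 1 was higher (Clpp, 1.38, but 0.56 without W14) and 1 lower (Grpel2). In scMeT-seq cells 0 were higher and 3 lower, namely Yme1l1 (-1.23), Lonp1 (-1.10) and Grpel2 (-1.04). In whole cells 2 were higher with lactate, Clpx (2.14) and Lonp1 (1.93). These counts, like those of the members, are set against the shares of all genes given above, and nothing particular to a list is read from them.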

How the data were processed

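The authors deposited whole-number counts of reads per gene and cell, from reads trimmed by fastp, placed on mm10 by HISAT2 and summarised per gene by StringTie, without normalization. Names of cells and genes were taken from the deposited tables that list them. The annotation behind the counts is not given in the sources used here, and coordinates and transcript lengths came from GENCODE M21 (GRCm38). Promoter sequences were those of RefSeq (GRCm38.p6), in which 59 of 72 members had an entry. Amino acid sequences were not used here.

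CPM and log2 ratios of CPM summed over the cells of a group were computed with Python 3.11.15 and scipy 1.17.1, and TMM factors with edgeR 4.0.16. Ratios carry exact conditional binomial 95% intervals and summed CPM exact Poisson intervals. Genes under 10 counts summed over a pair of groups were dropped, and a group at 0 was set to 3 counts. A call needs a 2-fold ratio and an interval on the same side of 0. The code was tested on simulated data. In each of 4 comparisons the text names 15 main members (Hspa8, Hspa1a, Hspa1b, Hspa4, Hsph1, Hsp90aa1, Hsp90ab1, Hspb1, Dnaja1, Dnajb1, Hspa5, Hsp90b1, Hspa9, Hspd1 and Hspe1), then at most 15 called members and at most 4 called genes of each list that reach 20 CPM in 1 of the groups. Other genes and values of single cells, such as those of W20, were chosen after their values were seen. Members, classes and lists were chosen with earlier results of these data known. Cells with fibroblast and mesothelial markers at 10% or more of the macrophage markers were left out as an alternative. Cells W20, CTL32 and W14 with W20 were left out as alternatives chosen after seeing the data. Further alternatives were TMM scaling, higher and lower count minimums, all 5 whole cells and each cell left out in turn. With 58444 to 851417 counts per cell, 3 counts correspond to 51.3 to 3.52 CPM, the limit that a count of 0 allows. This limit and the bounds from the floor hold for reads, and do not cover transcripts lost before sequencing. No column of per-sample values was left unused. Metabolomes were not analysed here.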

Additional observations from a re-analysis of the deposited data

Results flagged for a closer look

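Cells far from the others of their group were looked for among the 15 main members in the groups of 4 to 10 cells, by the gap of the highest or lowest cell to its neighbour over the range of the group. Of 59 gene and group pairs 9 stood out. An assumed chance rate of about 1 in 20 was not checked on CPM of single cells. Genes that share a cell are also not independent, so that no excess over chance is read from the 9. In the lactate cells of the AZD3965 experiment W20 stood apart for Hspa5 (8882 CPM, next 1106 CPM) and Hsp90b1 (2677 CPM, next 764 CPM). In the lactate+AZD cells W14, which carries fibroblast markers, stood apart for Hsp90ab1 (1393 CPM, next 977 CPM). Among controls of the lactate experiment CTL32 stood apart for Hspa9 (792 CPM, next 364 CPM), CTL31 for Hsph1 (162 CPM, next 44.3 CPM), and CTL27 for Dnaja1 (449 CPM, next 219 CPM) and, at the low end, for Hsp90b1 (18.6 CPM, next 326 CPM). Among lactate cells Lactic29 stood apart for Hspb1 (66.1 CPM, next 14.6 CPM), and Lactic27, at the low end, for Hspe1 (8.40 CPM, next 45.9 CPM).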

How the results depend on the processing

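No paired analysis was possible because the cell numbers shared by control and lactate cells only name cells and no test was run. Members called higher and lower were 8 and 12 with lactate, 7 and 4 with AZD3965, 5 and 12 in scMeT-seq cells and 7 and 5 with lactate in whole cells. With at least 100 counts they were 4 and 3 with lactate, 0 and 2 with AZD3965, 1 higher in scMeT-seq cells and 4 and 1 in whole cells, since fewer genes were measured. Without W14 they were 2 and 7 with AZD3965, and 7 were lower without W14 and W20. TMM gave 11 and 3 in whole cells. With 1 cell left out, higher and lower members ran from 5 to 9 and 10 to 15 with lactate, from 2 to 10 and 2 to 7 with AZD3965, from 4 to 9 and 11 to 14 in scMeT-seq cells and from 7 to 12 and 2 to 11 in whole cells. The counts moved by over 1.5 times without CTL28 (5 higher with lactate), W14 (2 higher and 7 lower) or T11 (2 lower) with AZD3965, Lactic16 (8 higher), Lactic6 (9 higher) or Lactic7 (9 higher) in scMeT-seq cells, and Lactic5 (2 lower), Lactic6 (11 lower), Lactic7 (10 lower) or CTL4 (12 higher) in whole cells. Hspb8 turned to 1.09 with lactate without CTL32, in a range of -4.16 to 1.09 over cells left out. With AZD3965 Hspb1 turned to -1.02 and Hspb8 to -1.70 without W14, and to -1.39 and -2.07 without W14 and W20. Hspa5 turned to 0.34 without W20 and 0.38 without both, and the ER pair to 0.36 and 0.43. Dnajc4 turned to -0.23 in the technique comparison without Lactic13. Over cells left out with AZD3965, Hspa5 ran from -1.84 to 0.34, Hspb1 from -1.02 to 4.77, Hspb8 from -1.70 to 3.86 and the ER pair from -1.36 to 0.36, and Dnajc4 in the technique comparison from -0.23 to 2.64. Values of Hspb1 and Hspb8 with AZD3965 without W14, without W14 and W20 and without W5, and of Hspb8 with lactate without Lactic29, are bounds set by the floor of 3 counts, since a group then had no count. The cause of these turns was not tested. Of 1781 values computed, 1633 kept direction and side of the threshold. The settings without W20, without CTL32 and without W14 and W20 were chosen after seeing the data. No cell of the last 2 comparisons reached the fibroblast limit, so that alternative gave no value there. With 1 sample per group, no value has a replicate check.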
